A study of Rattus norvegicus with 4 samples.

Results

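The 10 genes described here code for receptors that sense microbial molecules and for the proteins that serve them: the Toll-like receptor genes Tlr2, Tlr3, Tlr4, Tlr5, Tlr6, Tlr7 and Tlr9, the lipopolysaccharide (LPS) co-receptor genes Cd14 and Ly96, and the adaptor gene Myd88. They were chosen by name, through the accession attached to each non-control probe. All 10 had a probe, 13 probes in all, out of 16579 named genes and 45598 probes on the array. The cells were NR8383, an established rat macrophage line that was derived from lung lavage cells of a normal animal and kept for 20 passages in medium with heat-inactivated serum and seeded 48 h before use in 25 cm2 flasks. The exposure lasted 4 h, with titanium dioxide (NRCWE001) at a dose the labels give as 3 cm2/cm2. Replicates 1 to 4, which the design text calls biological, each had a one-colour array. Every array carried the same treatment label, and unexposed cells were not analysed here, so nothing below says whether the particles raised or lowered a transcript. A single cell line stands for the alveolar macrophage in these data, and culture and array cannot be told apart.

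Toll-like receptors recognise conserved molecules of microbes through a horseshoe-shaped ectodomain and signal through a cytoplasmic TIR domain. TLR2, TLR4, TLR5 and TLR6 act mainly at the cell surface, where TLR2 pairs with TLR6 (or with TLR1) on bacterial lipopeptides and TLR4 senses LPS held by its partner MD-2, the product of Ly96, after CD14 has handed the LPS over. TLR3, TLR7 and TLR9 sit in endosomes and bind nucleic acids. All of these receptors but TLR3 pass the signal to the adaptor MyD88, and in macrophages the result is a burst of cytokine transcription.

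A gene was called detected on an array where the scanner software marked any of its probes as well above background. By this rule the exposed cells carried Tlr2, Tlr4, Tlr6, Cd14, Ly96 and Myd88 transcripts on all 4 arrays, while Tlr3, Tlr5, Tlr7 and Tlr9 reached that mark on none of them. Thus 6 of the 10 genes were detected on all 4 arrays, where 45.7% of all named genes were. No member lay between, so the same 6 were counted when 1 array sufficed, by which rule 51.8% of all named genes were detected. The 6 detected genes hold the LPS receptor with both of its co-receptors, the TLR2 and TLR6 pair, and the adaptor. The 4 others are the flagellin receptor gene and the 3 endosomal receptor genes. Each of these 4 rests on 1 probe, and by a more lenient flag, described below, Tlr9 was positive on all 4 arrays.

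The arrays themselves were alike in background and differed in brightness. In replicate order the 75th percentiles of processed signal were 433, 347, 554 and 414 intensity units, over median local backgrounds of 36 to 41 units, and no spot was saturated. Levels below are log2 of the processed signal minus log2 of this percentile, so a level of 0 is the 75th percentile of the array. Levels of different probes are not set against each other, since probes differ in how well they bind. Of the macrophage markers measured 7 of 10 were detected on all 4 arrays (Cd68 at 4.62 ± 0.14, SD, n = 4), although Cd163, Adgre1 and Marco were not well above background on any. Of the markers of other cells that could carry these receptors, 0 of 4 lymphoid, 0 of 3 dendritic cell and 0 of 6 lung epithelial markers were detected on all 4 arrays, beside 1 of 5 for granulocytes and mast cells (S100a8) and 1 of 6 for fibroblasts and endothelium (Cdh5). Outside these, Cd3d was detected on 3 arrays and Krt18 on 1.

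**Figure D1:**
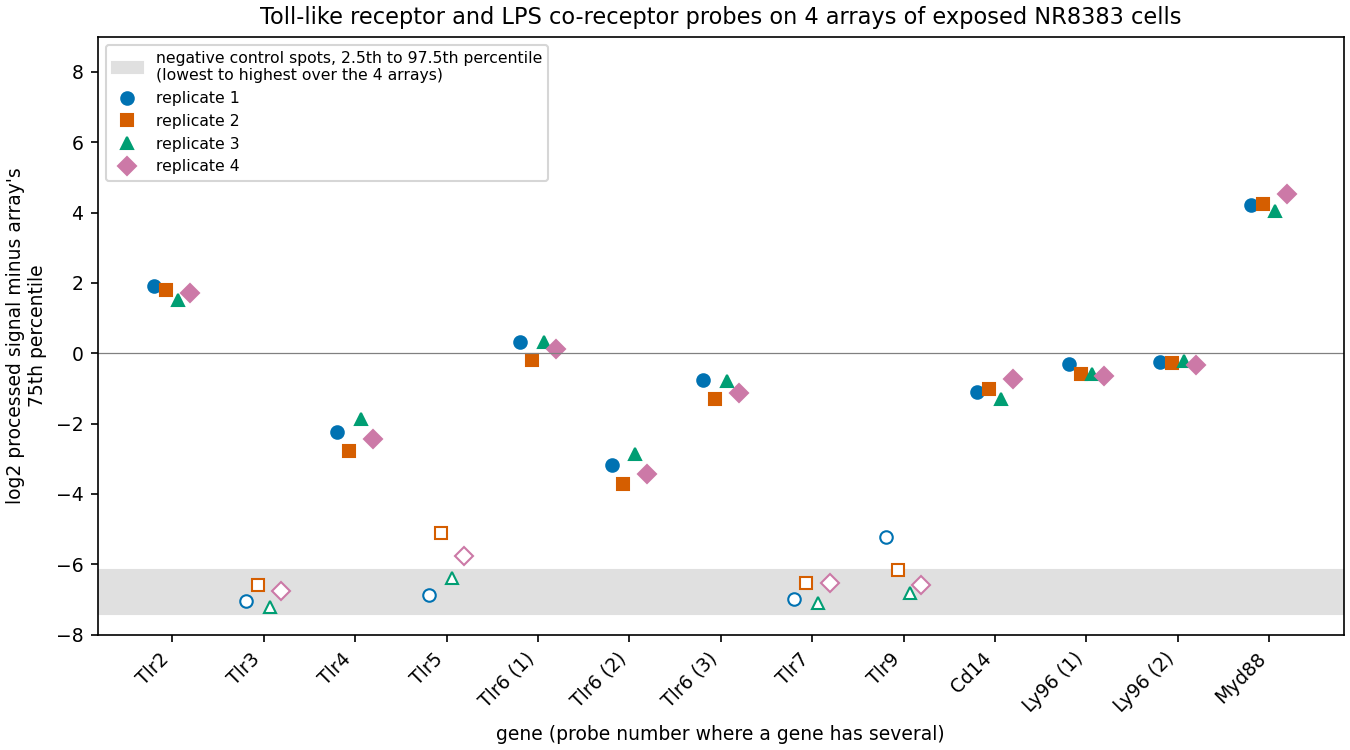
Level of each of the 13 probes of the 10 genes (x axis) on each of 4 arrays (y axis, log2 units relative to the array's 75th percentile), with filled symbols for probes well above background on all 4 arrays, open symbols for probes well above it on none, and a grey band for the negative control spots. The 9 probes of Tlr2, Tlr4, Tlr6, Cd14, Ly96 and Myd88 lie clear of the band, and the probes of Tlr3, Tlr5, Tlr7 and Tlr9 lie in it or close above it. Ly96 (1) is probe A_44_P1088216 and Ly96 (2) is A_64_P023587, and Tlr6 (1), (2) and (3) are A_44_P200968, A_44_P1112671 and A_44_P1081244.

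Tlr4 codes for the signalling receptor for LPS. Its probe had processed signals of 92.3, 50.5, 151 and 76.7 intensity units on replicates 1 to 4, which gave levels of -2.23, -2.78, -1.87 and -2.43. Replicate 3 was the highest and replicate 2 the lowest, 1.88 times apart. The mean level was -2.33 ± 0.38 (SD, n = 4).

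Tlr6, whose product pairs with TLR2 on diacylated lipopeptides, had 3 probes, and all were well above background on all 4 arrays. Probe A_44_P200968, the brightest, gave 537, 305, 697 and 452 intensity units, or levels of 0.31, -0.19, 0.33 and 0.12. Probe A_44_P1081244 gave levels of -0.75, -1.29, -0.80 and -1.13, and probe A_44_P1112671 levels of -3.19, -3.73, -2.87 and -3.44. The 3 probes sit at different places on the array (columns 164, 122 and 92), yet each had replicate 2 as its lowest array and replicate 4 as its second lowest. They lay 0.33, 0.30 and 0.42 below their own means on replicate 2. Means were 0.15 ± 0.24, -0.99 ± 0.26 and -3.31 ± 0.37 (SD, n = 4). The array tells nothing of why the brightness of the 3 probes differs, and A_44_P1112671 carries a different RefSeq transcript accession from the other two. Tlr1, a close paralogue, had 1 probe, which was not well above background on any array; whether Tlr6 probes also bind Tlr1 transcripts was not tested.

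Tlr4 and Tlr6 had much the same order of arrays. The Tlr4 probe and the Tlr6 probes A_44_P200968 and A_44_P1112671 ran from replicate 3 through 1 and 4 down to 2 (A_44_P1081244 was highest on replicate 1), an order that is also that of the arrays' 75th percentiles (554, 433, 414 and 347). The part of array brightness in it was not tested. Of all 7570 genes whose brightest probe was detected on all arrays, 8.28% were highest on replicate 3 and lowest on replicate 2. So were these 2 of the 6 members, an order picked out after the values were seen. Among 950 genes within 0.5 of the level of Tlr4 the share was 13.3%. Their median deviations on replicates 2 and 3 were -0.02 and 0.03, and Tlr4 deviated by -0.45 and 0.46. A median over many genes does not show how far single genes deviate, so it does not place Tlr4 among them. Replicate 2 stayed the lowest array for Tlr4 and for all 3 Tlr6 probes under each of the 5 other scalings and background corrections tried. The sizes did not hold with a normexp background correction (which adds an offset of 50 units), where Tlr4 lay 0.14 below its mean on replicate 2 and A_44_P1112671 lay 0.07 below, while A_44_P200968 and A_44_P1081244 lay 0.22 and 0.25 below. The highest array of all 3 Tlr6 probes was then replicate 1.

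**Figure D2:**
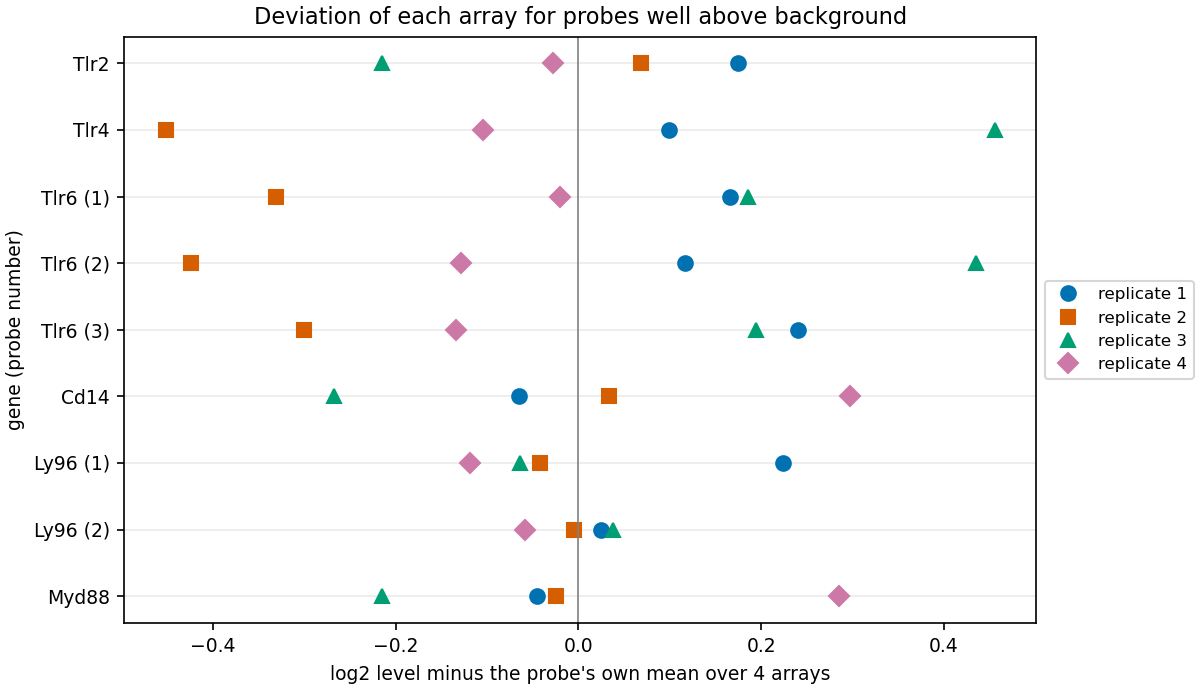
Deviation of each array from the probe's own mean over 4 arrays (x axis, log2 units) for the 9 probes well above background (y axis), 1 symbol per array. Replicate 2 is leftmost for Tlr4 and for all 3 Tlr6 probes, between -0.45 and -0.30, while Cd14 and Myd88 have replicate 3 leftmost and replicate 4 rightmost.

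The bases before the annotated starts of Tlr4 and Tlr6 are shown because the array order of these receptors is described above, and those of Tlr2 because its product is the partner of TLR6. They are the 250 bases upstream of each start in the RefSeq promoter table (build GRCr8), 5′ to 3′ on the gene's strand: chr5:85160997-85161246 (plus strand) for Tlr4, chr14:43715559-43715808 (plus strand) for Tlr6 and chr2:171504558-171504807 (minus strand) for Tlr2. Capitals mark GAGGAA on either strand, a core bound by the myeloid factor PU.1 and other ETS proteins, and in Tlr2 the matches to the NF-kB site.
Tlr4: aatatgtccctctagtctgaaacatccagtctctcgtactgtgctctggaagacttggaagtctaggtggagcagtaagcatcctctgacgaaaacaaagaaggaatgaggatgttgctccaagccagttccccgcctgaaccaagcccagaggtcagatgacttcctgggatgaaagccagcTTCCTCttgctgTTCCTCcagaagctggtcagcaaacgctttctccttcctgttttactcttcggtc
Tlr6: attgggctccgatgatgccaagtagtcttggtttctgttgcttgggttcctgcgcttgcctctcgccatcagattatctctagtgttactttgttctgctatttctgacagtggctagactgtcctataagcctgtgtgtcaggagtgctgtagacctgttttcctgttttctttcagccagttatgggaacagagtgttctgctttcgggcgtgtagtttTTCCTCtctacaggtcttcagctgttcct
Tlr2: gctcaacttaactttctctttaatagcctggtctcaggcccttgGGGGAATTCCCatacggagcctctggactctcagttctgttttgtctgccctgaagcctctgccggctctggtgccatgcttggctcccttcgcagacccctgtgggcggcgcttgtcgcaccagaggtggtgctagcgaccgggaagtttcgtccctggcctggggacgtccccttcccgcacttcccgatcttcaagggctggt
Both strands of 27457 promoters were searched in this window, and 9 of the 10 members had an entry. GAGGAA was found upstream of 6 members (Cd14, Tlr3, Tlr4, Tlr6, Tlr7 and Tlr9) and in 23.2% of all promoters, so members not well above background carried it as well as detected ones. In Tlr4 it occurs on the opposite strand at 50 to 55 and at 62 to 67 bases before the start, and in Tlr6 at 24 to 29. The NF-kB site occurs in Tlr2 alone of the 9 members, in overlapping matches at 196 to 206 bases before the start, and in 3.52% of all promoters. TGANTCA, the AP-1 site, was found in Myd88 and Tlr9 (6.36% of all), the interferon response element in Myd88 (3.29%), and TATAAA (the TATA box) in no member (13.1%). A match describes letters only.

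Tlr2 codes for the shared subunit of the lipopeptide receptors. Its probe gave 1627, 1210.5, 1589.9 and 1352 intensity units on replicates 1 to 4, or levels of 1.91, 1.80, 1.52 and 1.71. The highest array was replicate 1 and the lowest replicate 3, 1.31 times apart. The mean level was 1.74 ± 0.17 (SD, n = 4), and the order of Tlr4 and Tlr6 was not seen. The spot lies at column 24, within columns 1 to 72, where on the replicate 1 array 5.38% of detected spots lay over 0.5 below their mean against 0.487% in the columns beyond, and the part of this in the Tlr2 values was not tested. The Tlr4 spot (column 62) lies there too, and its level on replicate 1 was 0.10 above its mean.

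Cd14 codes for the protein that transfers LPS to the receptor complex. Its probe gave 202, 173, 224 and 248 intensity units, or levels of -1.10, -1.004, -1.30 and -0.74. Replicate 4 was highest and replicate 3 lowest, which is another order than that of Tlr4. The mean was -1.04 ± 0.24 (SD, n = 4).

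Ly96 codes for MD-2, the LPS-binding subunit that sits on TLR4, and had 2 probes, which ordered the arrays differently. Probe A_64_P023587 gave levels of -0.24, -0.27, -0.23 and -0.32, the mean being -0.26 ± 0.04 (SD, n = 4). Probe A_44_P1088216 gave -0.31, -0.58, -0.60 and -0.66, so here replicate 1 stood above the other three. That probe's spot lies at column 5, near the array's edge. On replicate 1 its processed signal was 1.58 times the spot's median signal less background, where the same ratio was 1.02 to 1.13 on the other arrays and 0.93 to 0.99 for A_64_P023587. Other spots near that edge differed on replicate 1. There the ratio was 1.80 for the macrophage marker Spi1 (column 11) and 1.02 for a spot of the marker Itgam (column 22). The part of the scanner software's processing in the level of A_44_P1088216 was not tested. With normexp on the median signals the direction turned, and replicate 1 lay 0.15 below the probe's mean instead of 0.22 above it. The spread of A_44_P1088216 was 0.15 on all arrays and 0.04 without replicate 1.

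Myd88 codes for the adaptor that links the receptors to IRAK kinases. Its probe gave 8019, 6517, 9126 and 9643 intensity units, or levels of 4.21, 4.23, 4.04 and 4.54. Replicate 4 was highest and replicate 3 lowest, 1.41 times apart, and the mean level was 4.26 ± 0.21 (SD, n = 4). Its deviations of 0.28 on replicate 4 and -0.22 on replicate 3 ran with those of equally bright genes: among 350 genes within 0.5 of its level the median deviations there were 0.13 and -0.17, and 50.0% of them had the same highest and lowest arrays, against 19.8% of all 7570 genes. After quantile normalization replicate 4 lay 0.19 above the probe's mean and replicate 3 lay 0.06 below it. Replicate 3 was then no longer the lowest array, which was replicate 2 (0.08 below the mean). With normexp the highest array was replicate 1 (0.18 above the mean, with replicate 4 at 0.17).

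No detected member was called more variable between the arrays than genes of like level. The test was limma's, in which the variance of a gene over the 4 arrays is divided by the prior variance of genes at its level and p-values are adjusted over all 7570 genes by the Benjamini-Hochberg method. It called 0 of 6 members, and 0.515% of all genes. At an unadjusted p under 0.05 limma's test called 0 of 6 members and 6.67% of all genes, so the members' count is near the background. Tlr4 had an SD 1.64 times the prior SD (limma adjusted p = 0.83, unadjusted 0.0683). Its unadjusted p in limma's test was 0.0219 without replicate 1, 0.0493 without replicate 4 and 0.0455 with a prior without trend. With normexp the Tlr4 SD was 0.13 against a prior of 0.18 (limma unadjusted p = 0.62). Tlr6 had an SD 1.47 times the prior (limma adjusted p = 0.943), and Cd14, Myd88 and Tlr2 had SDs of 1.27, 1.22 and 1.07 times the prior (limma adjusted p = 0.991 for each). For Ly96 the SD of its brighter probe was 0.25 times the prior. The median SD of the 6 members was 0.221, beside 0.163 over all tested genes. With 4 arrays, a gene that missed the threshold cannot be taken as constant.

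**Figure D3:**
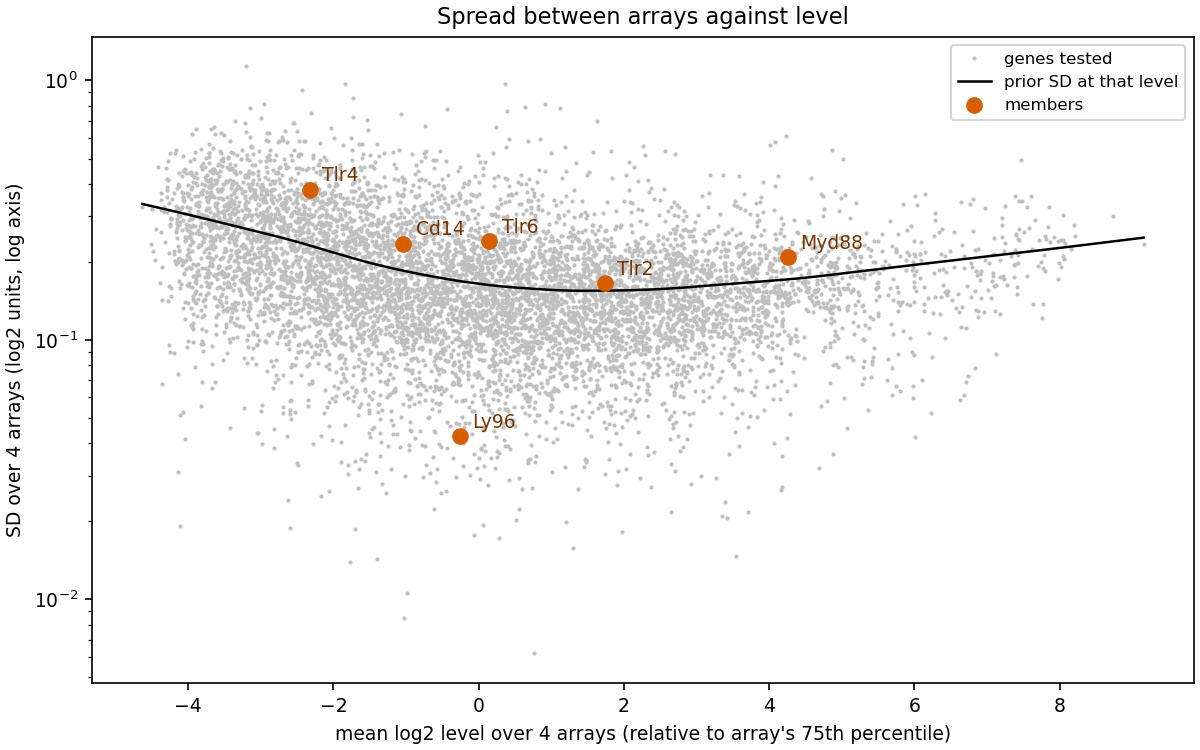
SD over the 4 arrays (y axis, log2 units on a log axis) against mean level (x axis) for 7570 genes whose brightest probe was detected on all arrays (grey points), with the prior SD at each level (black line) and the 6 detected members (orange points). Tlr4, Tlr6, Cd14 and Myd88 lie above the line, Tlr2 close to it and Ly96 far below it, all within the cloud of other genes.

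The probes of Tlr3 and Tlr7, endosomal receptor genes, lay among the negative controls. Tlr3, for double-stranded RNA, gave 3.25, 3.62, 3.73 and 3.81 intensity units, and Tlr7, for single-stranded RNA, gave 3.44, 3.77, 4.07 and 4.45. On each array 308 spots hold a negative control sequence, and none was well above background. The Tlr3 probe was brighter than 128 to 205 of them and the Tlr7 probe brighter than 176 to 281, so both had controls above and below them on every array. The dimmest probe that was well above background had 13.5 to 16.6 units on the 4 arrays. The scanner software's own error estimate for these spots was about the size of the signal, 100.3% to 100.7% for Tlr3. On replicate 1 the Tlr3, Tlr10 and Lbp probes had the same estimate, 100.3%, at different signals. Whether the software set such values at a floor was not tested. The units and ranks of these spots are therefore not taken as measured brightness.

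Tlr9, for unmethylated CpG DNA, and Tlr5, for flagellin, lay at the edge of detection. The Tlr9 probe gave 11.6, 4.83, 4.88 and 4.27 units, and replicate 1 was the bright one, above 307 of 308 negative controls. On the other arrays it was above 301, 299 and 271 of them. Its spot is at column 61, within the same part of the array as that of Tlr2, where replicate 1 had more low spots than beyond. The Tlr9 level on replicate 1 was 0.98 above its mean. The median signals of the spot were closer, 57, 56, 53 and 54 units over local backgrounds of 37 to 40 units. Processed signal was 0.58 times the median signal less background on replicate 1 and 0.28 to 0.33 times on the others. The parts of spot position and of the scanner software's processing in the Tlr9 level were not tested. The Tlr5 probe gave 3.69, 10.1, 6.58 and 7.68 units, above 218 negative controls on replicate 1, 305 on replicates 3 and 4 and all 308 on replicate 2. Its error estimate was 100.3% on replicate 1, as for Tlr3, and 40.1% to 65.6% on the others. By a more lenient flag, for signal significantly above background, Tlr9 was positive on all 4 arrays and Tlr5 on 3, while Tlr3 and Tlr7 remained negative on every array. The 2 flags thus place Tlr9 differently, and its error estimate of 31.9% on replicate 1 and 72.2% to 90.9% on the others shows the limit of these spots. For the detected members the estimate was 10.0% to 16.4%.

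Other genes of the pathway were taken from a list by role, of which 35 of 43 had a named probe, and 23 of the 35 were detected on all 4 arrays beside 45.7% of all named genes. Of 8 other receptors and co-receptors only Ly86, whose product MD-1 is a relative of MD-2, was detected on all arrays, at -0.52 ± 0.07 (SD, n = 4). Tlr1, Tlr8, Tlr10, Tlr11, Cd180 and Lbp, named here after their values were seen, were well above background on none, and Tlr12 was on 1 array. Cd180 codes for the receptor that MD-1 serves.

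Genes for folding and transport of the receptors were detected in 4 of 5 cases. Hsp90b1, the endoplasmic reticulum chaperone gp96 that folds most Toll-like receptors, lay at -0.23 ± 0.20, and Cnpy3, its co-chaperone for them, at 3.73 ± 0.11. Hsp90b1 deviated by 0.11, -0.23, 0.21 and -0.10 on replicates 1 to 4, so it was highest on replicate 3 and lowest on replicate 2, as were Traf6, Ripk1 and Cyld, 4 of the 23 pathway genes in all (8.28% of all genes). The opposite, highest on replicate 2 and lowest on replicate 3, held for Cnpy3, Ly86, Tab1, Ikbke and Irak3, 5 of 23 (12.2% of all genes). The genes in these counts were named after their values were seen. Of the adaptors, kinases and factors downstream 11 of 13 were detected, among them Ticam2 (-1.40 ± 0.17), the bridging adaptor of TLR4, and Irak1 (-0.18 ± 0.12), a kinase recruited by MyD88. Irak4 and Tbk1 were the exceptions, although by the lenient flag Irak4 was positive on all 4 arrays and Tbk1 on 3. Of the inhibitors 7 of 9 were detected, among them Irak3 (1.30 ± 0.11), a kinase-dead IRAK, and Tollip (1.23 ± 0.05). Sarm1 and Sigirr were not well above background.

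**Figure D4:**
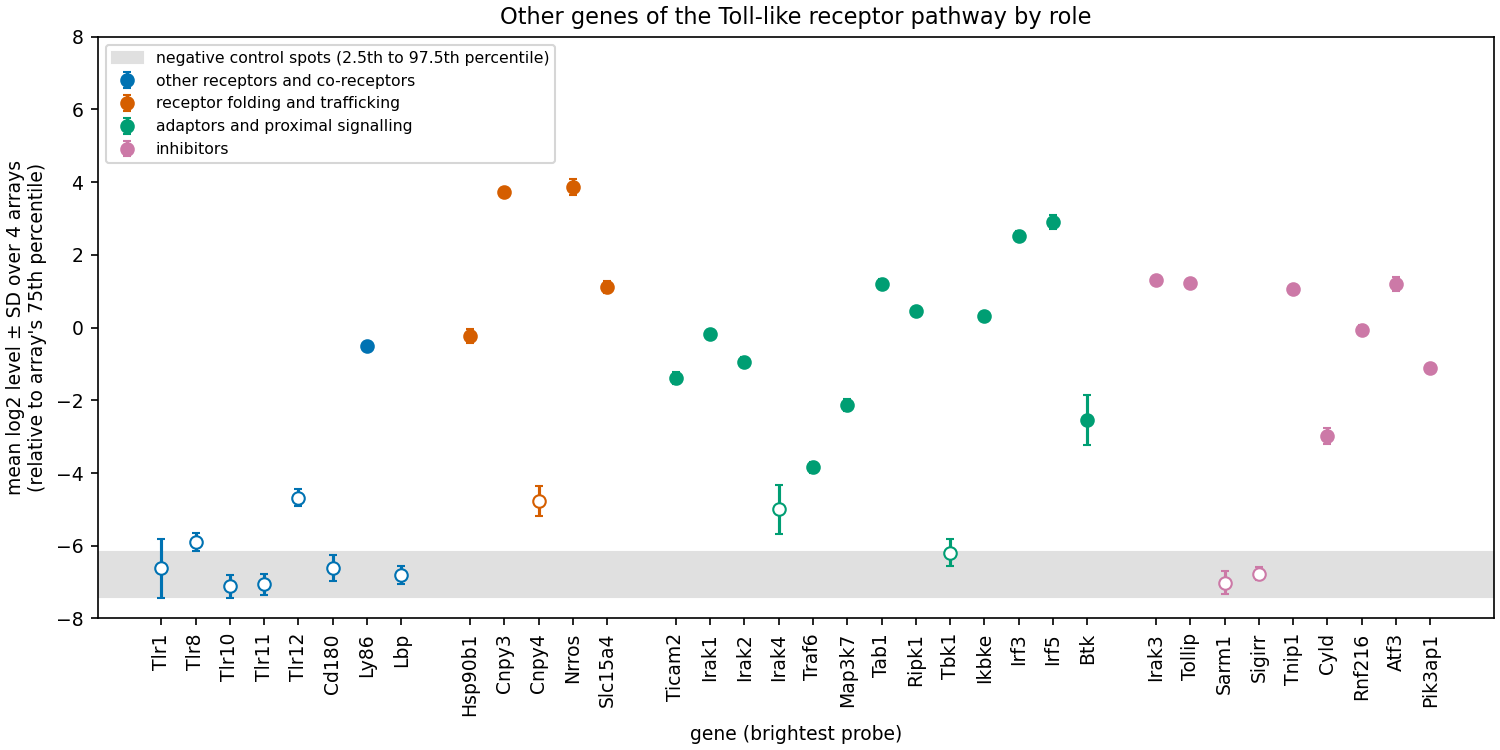
Mean level ± SD over 4 arrays (y axis, log2 units relative to the array's 75th percentile) of 35 other pathway genes (x axis, brightest probe) coloured by role, with filled symbols for genes detected on all 4 arrays, open symbols for the others, and a grey band for the negative control spots. Most other receptors lie in or near the band, while most genes of the other roles are filled.

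No pathway gene was called more variable than genes of like level (0 of 23 by limma's adjusted p, beside 0.515% of all tested genes), and 1 of 23 had an unadjusted p under 0.05, as had 6.67% of all tested genes. It was Btk, which codes for a tyrosine kinase and was picked out by these values, with levels of -1.98, -2.36, -2.31 and -3.54. Replicate 4 was the low array, and the mean was -2.55 ± 0.68 (SD, n = 4, limma adjusted p = 0.0866, with alternatives from 0.00781 to 0.991). Without replicate 4 Btk lay at -2.22 ± 0.21. With normexp the Btk SD was 0.29 against a prior of 0.18 (limma unadjusted p = 0.0502, adjusted p = 0.626). Btk rests on 1 probe with 1 spot, which lies at column 1, the array's edge. The part of spot position in the Btk levels was not tested. The median SD of the 23 genes was 0.138, beside 0.163 over all tested genes.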

How the data were processed

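Total RNA of 4 NR8383 cultures was labelled with Cy3 from 100 ng per culture and hybridised to 4 one-colour Agilent arrays. The deposited values are intensity, as processed by the scanner software. Per the file headers, Agilent Feature Extraction (version 11.0.1.1) subtracted background and removed spatial trends, with no scaling from array to array. Flags and spot positions are other deposited columns, per the file headers.

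Spots that the software marked as non-uniform or as outliers of their population were dropped (634 to 669 of 58717 per array; none of a member). Levels are log2 of the processed signal minus the 75th percentile over the remaining non-control spots. Each member probe is printed on 1 spot. Accessions without versions were named through the RefSeq gene table of assembly GRCr8, which named 21109 of 45598 probes. The array's grid names an older rat build, so no positions of probes or genes are given, and the coordinates printed with the promoter sequences are those of GRCr8. A gene's brightest probe represents it, and a probe counts as detected where the flag is set on over 0.5 of its spots.

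Variances over the arrays (3 degrees of freedom) were divided by a trended, robust prior (24.3 degrees of freedom) from limma 3.58.1 in R 4.3.3. The code was run on data simulated from that same prior. The raised SDs in that run were larger, relative to the prior, than those of the members. The run therefore does not show the power of the test for the members. Tables were handled with data.table (version 1.17.8) and jsonlite 2.0.0. The members, gene lists and tests were chosen with earlier results of these data known. The text gives every member and probe, and of each pathway role the first genes detected in list order and any gene called. The number of arrays limits the precision. No pair of arrays shared an identical spot value. Alternatives were other scalings, a normexp background, other detection rules and priors, the mean over probes, flagged spots kept, spots beyond column 72 alone and each replicate left out. The files hold no mean spot signal, so normexp used the median one.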

Additional observations from a re-analysis of the deposited data

How the results depend on the processing

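The same 6 members were detected on all 4 arrays with the brightest probe alone, with flagged spots kept and without any 1 replicate. With the lenient flag Tlr9 joined them (7 members), and 27 pathway genes were detected in place of 23. The pathway genes added were Tlr8, Tlr12, Cnpy4 and Irak4. No member was called more variable in any of 14 alternative fits, with adjusted p for Tlr4 from 0.648 to 0.987. The same held for the pathway genes except Btk, the 1 gene called without a filter on detection (adjusted p = 0.0278) and without replicate 2 (adjusted p = 0.00781), so that count ran from 0 to 1 with a replicate left out. The count over all genes was 39, but 0 after quantile normalization, with the 75th percentile taken over detected probes or with a prior without trend, 9 without robust estimation, 13 beyond column 72 (where 4 members and 13 pathway genes were tested), 127 without a filter, 206 with normexp and 10 to 77 with a replicate left out. The cause of these differences was not tested. Btk, whose 1 spot lies at column 1, was not among the genes tested beyond column 72. Other scalings shift all levels nearly together. The median tested gene moved by 2.61 to 2.66 with quantile normalization and by 0.56 to 0.57 with the median of detected probes. It moved by -1.77 to -1.64 with their 75th percentile and by -0.17 to -0.15 with flagged spots kept. With normexp the median tested gene moved by 0.02 to 0.11, but levels did not shift together. The mean level then went from -6.90 to -2.95 for Tlr3, from -2.33 to -1.69 for Tlr4 and from 1.74 to 1.46 for Tlr2. No paired analysis was possible because the arrays form 1 group.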
